A study of Homo sapiens with 12 samples.

Results

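The S100 proteins are a vertebrate family of small calcium-binding proteins. The 10 members described here were chosen by gene name from the family, with earlier results of these data known. The members are S100A2, S100A3, S100A4, S100A6, S100A10, S100A11, S100A13, S100A14, S100A16 and S100P. They are 10 of the 58735 genes in the deposited count table, and 9 of them were among the 17829 genes with enough counts to be tested. The study asked how GFI1, a zinc-finger repressor of blood cell development, changes carcinoma cells that keep or lose their substrate. RNA-Seq libraries were made from A549, an established human lung adenocarcinoma cell line, in 4 groups of 3 libraries. The groups were attached control cells, attached GFI1-expressing cells, and both kinds of cells after they had been forced to float for 48 hours, all grown in the same serum-containing medium. GFI1 was delivered by a lentivirus with a human PGK promoter and a GFP marker, and transduced cells were sorted by GFP, so the GFI1 cells are a sorted population of 1 line. No label names a vector for the controls. The paper describes A549 controls with an empty vector in its mouse experiments, but its RNA-Seq methods do not state this for these libraries. From these sources, an effect of transduction itself cannot be told apart from that of GFI1. Nothing in the labels ties the libraries of a group to separate cultures, and the p values therefore measure only the spread between these libraries.

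An S100 protein carries a pair of EF-hand calcium-binding loops, usually works as a dimer, and changes shape on binding calcium so that it can hold a target protein. S100A10 is the exception that no longer binds calcium and stays in the target-binding shape. Many of the targets sit at the membrane or in the cytoskeleton, among them annexins, non-muscle myosin and ezrin, and several family members are also released from cells and signal through the receptor AGER (RAGE). Most of the family lies in 1 cluster on the long arm of chromosome 1, and S100P lies apart on chromosome 4.

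The libraries held between 17014188 and 20748677 counts, of which the 10 members took between 0.202% and 0.272%. Levels are given below as CPM (each count over its TMM-scaled library size), and differences are log2 fold changes ± standard error (log2 value) with the Benjamini-Hochberg adjusted p from edgeR's quasi-likelihood test over all tested genes, called at 0.05 or less. GFI1 itself had between 4 and 12 counts in the control libraries and between 5154 and 12796 in the GFI1 libraries. The labels thus matched its mRNA. Its level was not the same in both states, with 290, 294 and 286 CPM in attached GFI1 and 545, 706 and 430 in floating GFI1 libraries. Of 8 epithelial markers, 7 or 8 reached 1 CPM in every library of each group. The summed fibroblast, endothelial and blood markers reached at most 15.6, 6.01 and 14.1 CPM. The endothelial sum was 2.06 to 2.53 CPM in attached control and 4.48 to 6.01 in attached GFI1 libraries. The fibroblast sum went the other way, from 13.5 to 15.6 in attached control to 10.3 to 11.3 in attached GFI1 libraries. The summed epithelial markers ranged from 10549 to 11148 CPM in attached control, 4403 to 4518 in attached GFI1, 6739 to 7172 in floating control and 3240 to 3631 in floating GFI1 libraries, and the part of this change in the S100 values was not tested. The single epithelial markers did not all move with the sum. With GFI1 in attached cells EPCAM, KRT8, KRT18, CDH1 and KRT7 were called lower, and KRT19, CLDN4 and ELF3 higher. In floating cells the former were again lower and the latter had no call. In these bulk samples, fewer cells that make an mRNA and less of that mRNA per cell cannot be told apart. Replicates 2 and 3 of the floating GFI1 group differed most, with a chi-square per gene of 11.8 against 2.01 to 4.99 in the other 11 replicate pairs, and these 2 libraries are left out in turn below. Without replicate 3 the suspension call of S100A3 in GFI1 cells was lost and S100A13 passed on suspension of control cells, and without replicate 2 the calls of S100A2 on suspension of GFI1 cells and of S100A6 in the interaction were lost and S100A13 again passed, and no other member call changed.

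With GFI1, S100A10, S100A11 and S100A16 were lower and S100A4 was higher in both attached and floating cells, while S100A3 and S100P changed in attached cells and S100A2 and S100A6 in floating cells. In attached cells 4 of the 9 tested members were lower with GFI1 (44.4%, against 32.8% of all tested genes) and 2 were higher (22.2%, against 29.5%). In floating cells 3 were lower (33.3%, against 31.1%) and 3 were higher (33.3%, against 29.3%). These shares are close to those of all tested genes, and the count of changed members is therefore not read as a result about the family. The median log2 fold change of the 9 members was 0.0055 in attached and -0.077 in floating cells, beside -0.0066 and 0.011 over all tested genes. S100A10 and S100A11 had the lowest values in both states. The comparisons share libraries, since each group enters more than 1 of them, and the values are set side by side without a test of their likeness.

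**Figure D1:**
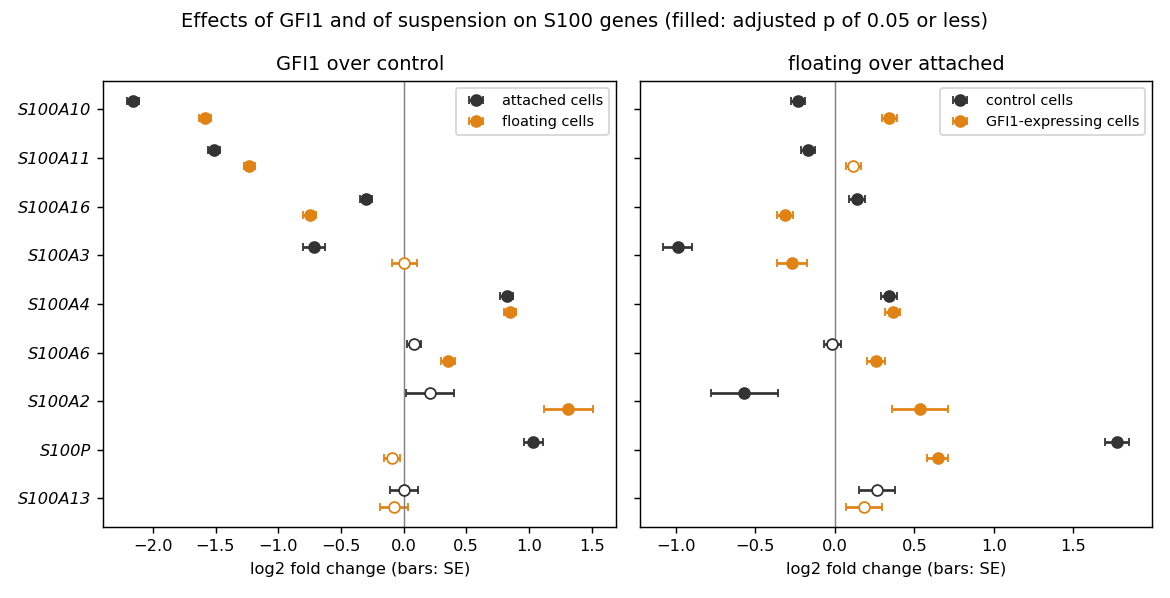
Log2 fold change of each of the 9 tested S100 genes with its standard error, for GFI1 over control (left; black, attached cells; orange, floating cells) and for floating over attached (right; black, control cells; orange, GFI1-expressing cells), 3 libraries per group. Filled points had an adjusted p of 0.05 or less. S100A10 lay furthest left with GFI1, at -2.16 and -1.58, and S100P lay furthest right on loss of attachment in control cells, at 1.78.

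Suspension moved the members in both directions as well. In control cells 3 of 9 rose (33.3%, against 19.6% of all tested genes) and 4 fell (44.4%, against 20.5%) when the cells were floated. In GFI1 cells 5 rose (55.6%, against 15.0%) and 2 fell (22.2%, against 16.3%). The GFI1 effect itself differed between the attached and floating states (the interaction) for 7 of 9 members, 5 with a higher value in floating cells (55.6%, against 4.76% of all tested genes) and 2 with a lower one (22.2%, against 6.01%). The interaction calls were S100A2, S100A3, S100A6, S100A10 and S100A11 upward and S100A16 and S100P downward. GFI1 mRNA itself was 1.93-fold higher in floating than in attached GFI1 cells (log2 value 0.95 ± 0.095, adjusted p = 2.38e-08). Its part in the interaction and in the suspension values of GFI1 cells was not tested. The 3 tested S100 genes outside the members had no interaction call. The values were 0.42 ± 0.41 for S100A1 (adjusted p = 0.595), -0.60 ± 0.36 for S100A5 (0.347) and -2.31 ± 1.09 for S100A9 (0.208). These genes had at most 49 counts in a library and larger standard errors than any tested member. Their lack of a call therefore does not set them apart from the members. The background shares are over tested genes of every abundance, and the gap between the shares was not tested. The members were also chosen with earlier results of these data known, so the shares are given as a description only. A fold of at least 2 was reached by 3 of the 9 members with GFI1 in attached cells (33.3%, against 18.2% of all tested genes) and by 3 in floating cells (33.3%, against 17.3%). It was reached by 1 on suspension of control cells, by 0 on suspension of GFI1 cells and by 2 in the interaction, beside 5.10%, 2.80% and 1.35% of all tested genes.

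The start regions of the 2 members that fell most with GFI1, S100A10 and S100A11, and of 2 that rose in attached cells, S100A4 and S100P, are printed so that the starts of members that moved in opposite directions can be set side by side. Each run covers 250 bases before and 50 bases after the RefSeq start site (GRCh38.p14), is written 5′ to 3′ on the gene's strand, and carries in capitals AATC, the core of the motif that GFI1 recognises, read on both strands (GATT on the other).
S100A10, chr1:151993810-151994109, minus strand: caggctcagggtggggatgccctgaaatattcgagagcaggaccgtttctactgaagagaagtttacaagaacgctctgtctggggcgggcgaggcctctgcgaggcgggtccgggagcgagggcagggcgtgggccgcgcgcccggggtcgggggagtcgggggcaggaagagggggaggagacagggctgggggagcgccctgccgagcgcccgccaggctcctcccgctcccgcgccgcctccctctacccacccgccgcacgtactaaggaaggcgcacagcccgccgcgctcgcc
S100A11, chr1:152036955-152037254, minus strand: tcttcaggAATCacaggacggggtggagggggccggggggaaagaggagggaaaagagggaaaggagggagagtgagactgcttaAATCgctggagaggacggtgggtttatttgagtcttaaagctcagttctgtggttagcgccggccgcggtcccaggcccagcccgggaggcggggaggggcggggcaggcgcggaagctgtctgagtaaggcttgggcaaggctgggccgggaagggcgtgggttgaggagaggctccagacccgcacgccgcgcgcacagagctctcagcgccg
S100A4, chr1:153545757-153546056, minus strand: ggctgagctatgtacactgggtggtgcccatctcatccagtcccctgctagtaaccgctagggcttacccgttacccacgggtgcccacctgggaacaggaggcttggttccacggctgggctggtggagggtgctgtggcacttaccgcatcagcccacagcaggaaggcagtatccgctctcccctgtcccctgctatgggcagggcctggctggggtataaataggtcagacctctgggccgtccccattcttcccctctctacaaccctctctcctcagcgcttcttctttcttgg
S100P, chr4:6693628-6693927, plus strand: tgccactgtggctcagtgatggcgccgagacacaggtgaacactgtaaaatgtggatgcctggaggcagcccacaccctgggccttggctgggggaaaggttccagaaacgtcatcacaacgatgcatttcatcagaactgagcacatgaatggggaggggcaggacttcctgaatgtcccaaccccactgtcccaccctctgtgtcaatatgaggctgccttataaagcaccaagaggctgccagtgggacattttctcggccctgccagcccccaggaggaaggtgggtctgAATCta
The S100A10 region, of the member with the largest fall, held no AATC on either strand, nor did that of S100A4, while the S100A11 region held 2 and the S100P region held 1. Of 27305 RefSeq start regions of the same length 69.6% held the core, so a match in such a short word is common. Over the family the core was found in S100A3 and S100A11 (2 each) and in S100A13 and S100P (1 each), and was not in the window of the other 6. The S100A10 and S100A11 regions were rich in CpG, with 32 and 22 CpG pairs and a GC content of 71.7% and 65.3%, against a median GC content of 58.3% over all start regions. S100A6 had the same make-up, with 31 CpG pairs and 69.3% GC. The S100A4 and S100P regions had 8 and 5 CpG pairs and 60.7% and 56.0% GC. The hypoxia response core, ACGTG or GCGTG on either strand, was found in 5 of the 10 members (S100A2, S100A6, S100A10, S100A11 and S100A13) and in 48.4% of all start regions. The AP-1 site TGANTCA was found once each in S100A2 and S100A3, and in 7.8% of all start regions.

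S100A10, also called p11, is the partner that anchors annexin A2 at the membrane as a heterotetramer and exposes plasminogen to its activators at the cell surface. It measured 430.3, 391 and 405 CPM in attached control, 91.9, 93.1 and 89.4 in attached GFI1, 358, 354 and 332 in floating control and 112, 115 and 121 in floating GFI1 libraries. The 6 GFI1 libraries lay below all 6 control libraries, and none of the 4 groups overlapped another. GFI1 lowered S100A10 by 4.47-fold in attached cells (log2 value -2.16 ± 0.048, adjusted p = 1.83e-22). In floating cells the fall was 3.00-fold (-1.58 ± 0.047, adjusted p = 7.72e-20), and the difference between both effects was itself past the threshold (log2 value 0.58 ± 0.066, adjusted p = 1.18e-06). Suspension lowered S100A10 in control cells (-0.23 ± 0.045, adjusted p = 1.50e-04) and raised it in GFI1 cells (0.34 ± 0.048, adjusted p = 4.22e-06). S100A10 had the widest range of group means on the log2 CPM scale among the members with a mean of at least 10 CPM, at 2.16.

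S100A11, which binds annexin A1 and takes part in membrane repair and keratinocyte growth control, followed the same order of groups. It measured 318, 290.1 and 296 CPM in attached control, 109.7, 105 and 102 in attached GFI1, 271, 274 and 261 in floating control and 109.5, 115 and 118 in floating GFI1 libraries. The control and GFI1 libraries were apart in both states, while the attached and floating GFI1 libraries overlapped. The fall with GFI1 was 2.85-fold in attached cells (log2 value -1.51 ± 0.046, adjusted p = 1.41e-19) and 2.35-fold when the cells floated (-1.23 ± 0.046, adjusted p = 9.74e-18), with an interaction of 0.28 ± 0.065, adjusted p = 0.00455. Suspension lowered S100A11 in control cells (-0.17 ± 0.044, adjusted p = 0.00382), and in GFI1 cells the value was 0.12 ± 0.047, adjusted p = 0.0619. It passed there under upper quartile scaling (0.0267), with library size only (0.0443), with at least 10 counts in every library (0.0369) and without attached control 1 (0.0486). Across the 12 libraries, which fall into the 4 groups, log2 CPM of S100A10 and S100A11 had a Pearson r of 0.997. The 3 genes outside the family closest to S100A10 by this measure were STOM (r = 0.996), the membrane protein stomatin, SCRN1 (0.995) and DPYSL2 (0.995). STOM had a mean of 158 CPM in attached control and 21.2 in attached GFI1 libraries, and 129 and 25.4 in the floating groups.

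ANXA2 and ANXA1, the annexins named above for these 2 members, parted ways. ANXA2, the calcium-dependent membrane binder held by S100A10, measured 2579, 2554 and 2435 CPM in attached control, 454, 444 and 452 in attached GFI1, 2384, 2504 and 2418 in floating control and 334, 315 and 354 in floating GFI1 libraries. Its 6 GFI1 libraries were far below the 6 control libraries, with a 5.61-fold fall in attached cells (log2 value -2.49 ± 0.046, adjusted p = 5.79e-24) and a 7.29-fold fall in floating cells (-2.87 ± 0.047, adjusted p = 5.64e-25). The interaction was negative (-0.38 ± 0.062, adjusted p = 1.50e-04), whereas that of S100A10 was positive. Suspension lowered ANXA2 in GFI1 cells (-0.43 ± 0.045, adjusted p = 4.15e-08), in which S100A10 rose, and the value in control cells was -0.051 ± 0.043, adjusted p = 0.389. ANXA1, a partner of S100A11, measured 1369, 1285 and 1296 CPM in attached control, 1315, 1290.1 and 1291 in attached GFI1, 1186, 1242 and 1217 in floating control and 1116, 1069.6 and 1158 in floating GFI1 libraries. Its attached groups overlapped (-0.020 ± 0.042, adjusted p = 0.703) and its fall in floating cells was slight (-0.12 ± 0.042, adjusted p = 0.0121), beside the large falls of S100A11. Of the other annexins in the partner list, ANXA6 fell with GFI1 in attached (-2.22 ± 0.079, adjusted p = 2.81e-18) and floating cells (-2.48 ± 0.085, adjusted p = 1.62e-18). ANXA11 rose with GFI1 in attached (0.47 ± 0.040, adjusted p = 1.90e-10) and floating cells (0.42 ± 0.041, adjusted p = 1.63e-09).

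**Figure D2:**
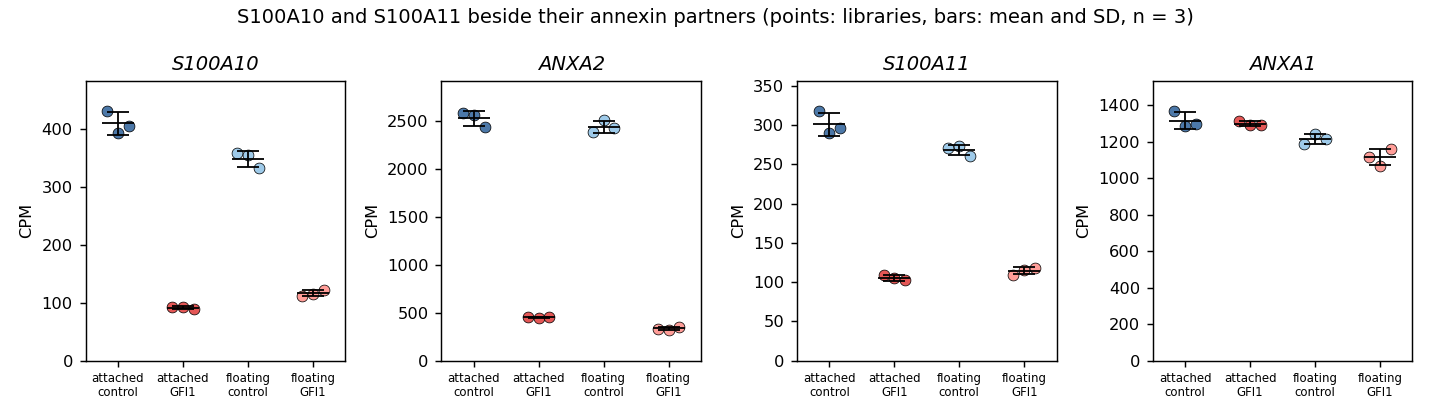
CPM of S100A10, its partner ANXA2, S100A11 and its partner ANXA1 in each of the 12 libraries (points), with the mean and SD of each group (bars, n = 3). S100A10, ANXA2 and S100A11 were lower in every GFI1 library than in every control library, while ANXA1 stayed between 1069.6 and 1369 CPM.

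S100A4, known as metastasin, binds the heavy chain of non-muscle myosin IIA and is studied for its part in cell motility and metastasis. It measured 497, 457 and 448 CPM in attached control, 877, 786 and 814 in attached GFI1, 599, 593 and 582 in floating control and 1048, 1019.6 and 1122 in floating GFI1 libraries. The groups stood in the order attached control, floating control, attached GFI1, floating GFI1, and no group overlapped the next. GFI1 raised S100A4 by 1.77-fold in attached cells (log2 value 0.82 ± 0.049, adjusted p = 1.40e-13) and by 1.80-fold in cells that floated (0.85 ± 0.049, adjusted p = 7.33e-14). Suspension added a rise of 1.27-fold in control cells (0.34 ± 0.049, adjusted p = 3.32e-06) and 1.29-fold in GFI1 cells (0.36 ± 0.048, adjusted p = 1.74e-06). The interaction of 0.024 ± 0.069, adjusted p = 0.885 did not pass the threshold. MYH9, the myosin heavy chain that S100A4 binds, measured 590.0, 637 and 626 CPM in attached control, 1056, 1064 and 1084 in attached GFI1, 375, 349.5 and 349.8 in floating control and 750.4, 798 and 771 in floating GFI1 libraries. It was also raised by GFI1 (0.79 ± 0.043, adjusted p = 2.31e-14 in attached and 1.11 ± 0.044, adjusted p = 2.68e-17 in floating cells) but was lowered by suspension (-0.79 ± 0.044, adjusted p = 2.66e-13 in control and -0.47 ± 0.043, adjusted p = 4.85e-09 in GFI1 cells), in which S100A4 rose.

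S100A6, or calcyclin, is a growth-related member that binds the ubiquitin ligase adaptor CACYBP, and it had the highest mean level per length of the 10 members in each group. It measured 939, 844 and 909 CPM in attached control, 1034, 876 and 937 in attached GFI1, 921, 858 and 884 in floating control and 1126, 1207 and 1068 in floating GFI1 libraries. The floating GFI1 libraries lay above all others, and the other 3 groups overlapped. In attached cells the GFI1 effect did not pass (log2 value 0.081 ± 0.055, adjusted p = 0.214), and in floating cells S100A6 rose 1.28-fold (0.35 ± 0.056, adjusted p = 5.23e-06). Suspension raised it in GFI1 cells (0.26 ± 0.055, adjusted p = 7.54e-04), beside -0.015 ± 0.056, adjusted p = 0.862 in control cells. The interaction of 0.27 ± 0.078, adjusted p = 0.0245 was lost on leaving out any 1 of 8 of the 12 libraries, with an adjusted p of up to 0.0753, and held without attached control 2, attached GFI1 1, floating control 1 or floating GFI1 3. In attached cells the GFI1 effect on S100A6 passed under upper quartile scaling (0.13, adjusted p = 0.0377), with no scaling beyond library size (0.23, adjusted p = 0.000682) and when only the attached libraries were fitted (0.11, adjusted p = 0.0451).

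**Figure D3:**
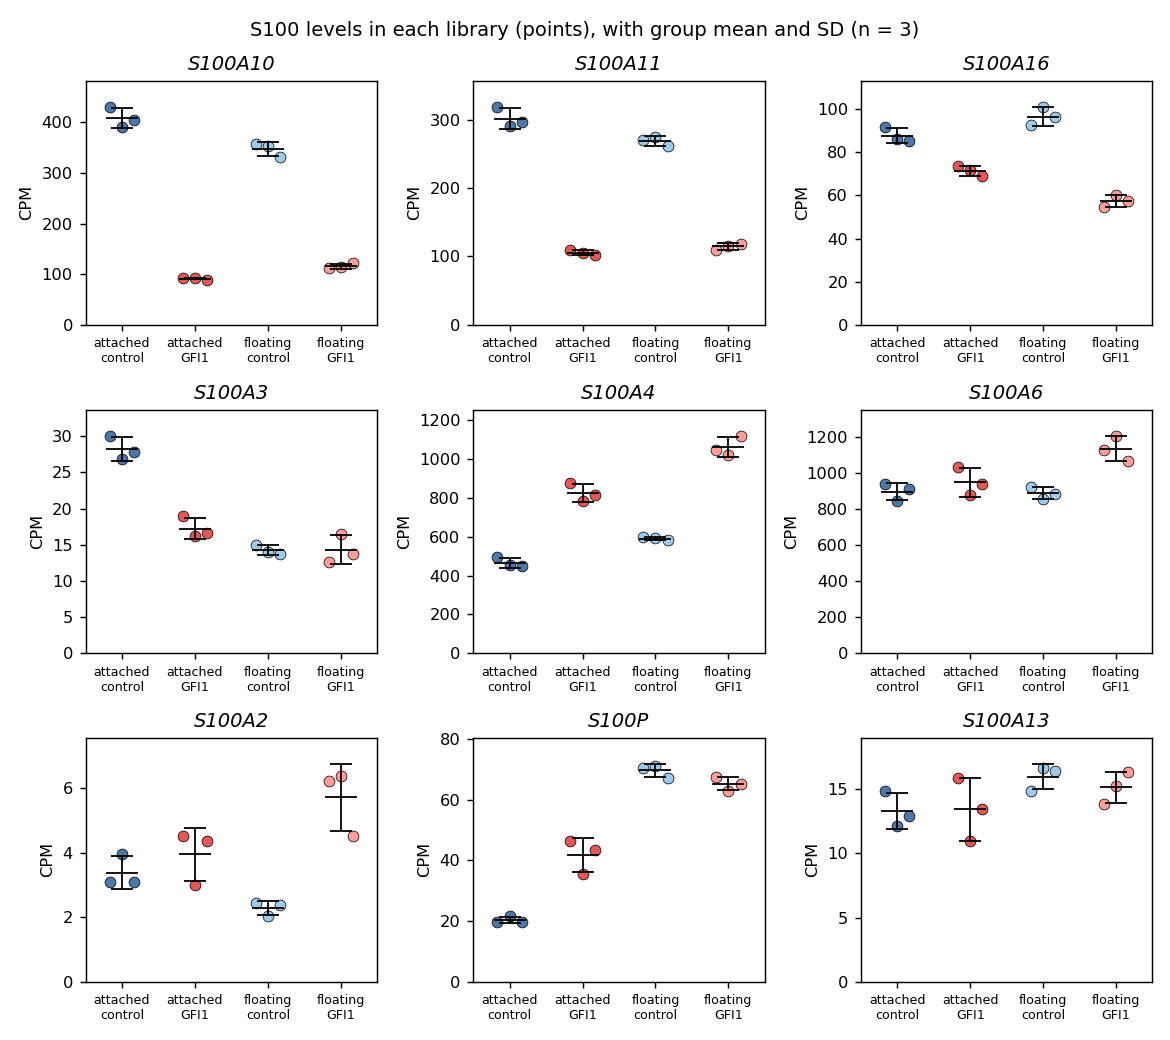
CPM of the 9 tested S100 genes in each library (points) by group, with the group mean and SD (bars, n = 3), each panel on its own axis from 0. S100A10 and S100A11 fell with GFI1, S100A4 rose with GFI1 and with suspension, and S100P rose from about 20.3 CPM in attached control to 69.6 in floating control libraries.

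S100P, first found in placenta, binds ezrin at the cell cortex and is released as a ligand of AGER. It measured 19.8, 21.5 and 19.6 CPM in attached control, 46.3, 35.6 and 43.4 in attached GFI1, 70.5, 71.1 and 67.2 in floating control and 67.3, 63.0 and 65.2 in floating GFI1 libraries. The attached control libraries were lowest and the attached GFI1 libraries next, while the 2 floating groups were highest and overlapped. In attached cells GFI1 raised S100P by 2.05-fold (log2 value 1.03 ± 0.077, adjusted p = 1.14e-11). In floating cells the value was -0.10 ± 0.065, adjusted p = 0.210, and the interaction of -1.13 ± 0.10, adjusted p = 2.54e-08 was the most negative of the 9 tested members. Suspension raised S100P by 3.42-fold in control cells (1.78 ± 0.074, adjusted p = 1.51e-15), the largest suspension effect among the tested members, and by 1.56-fold in GFI1 cells (0.65 ± 0.067, adjusted p = 3.78e-08). EZR, which encodes ezrin, measured 369, 369.8 and 355 CPM in attached control, 223, 223 and 223 in attached GFI1, 274, 271 and 266 in floating control and 224, 249.0 and 228 in floating GFI1 libraries. With GFI1 it was lower both before (-0.71 ± 0.043, adjusted p = 1.92e-13) and after suspension (-0.21 ± 0.043, adjusted p = 1.35e-04), and it fell with suspension in control cells (-0.43 ± 0.043, adjusted p = 9.06e-09), beside 0.064 ± 0.043, adjusted p = 0.287 with suspension in GFI1 cells. S100P rose in 3 of these comparisons and had no call in the other, that of GFI1 in floating cells. AGER was low, with a group mean of 3.97 ± 0.574 CPM (SD, n = 3) in attached control libraries and 7.91 ± 0.247 in floating GFI1 libraries, and rose with GFI1 (0.58 ± 0.15, adjusted p = 0.00195 in attached and 0.37 ± 0.14, adjusted p = 0.0267 in floating cells) and with suspension (0.62 ± 0.16, adjusted p = 0.00239 in control and 0.40 ± 0.14, adjusted p = 0.0273 in GFI1 cells).

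S100A16, a broadly expressed member, measured 91.9, 86.3 and 85.1 CPM in attached control, 73.7, 71.6 and 69.0 in attached GFI1, 92.6, 101 and 96.3 in floating control and 54.8, 60.0 and 57.4 in floating GFI1 libraries. Every GFI1 library was below every control library, and the floating groups were further apart than the attached ones. The fall with GFI1 was 1.23-fold in attached cells (log2 value -0.30 ± 0.049, adjusted p = 9.43e-06) and 1.68-fold after suspension (-0.75 ± 0.050, adjusted p = 1.31e-12), with an interaction of -0.45 ± 0.070, adjusted p = 6.77e-05. Suspension lowered S100A16 in GFI1 cells (-0.31 ± 0.050, adjusted p = 2.40e-05) and raised it slightly in control cells (0.14 ± 0.048, adjusted p = 0.0243). The slight rise was not past the threshold without attached control 2 or 3 or floating control 2 or 3, with adjusted p of 0.0883, 0.119, 0.142 and 0.0588, or with no filter on low counts (0.0857).

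S100A3, a cysteine-rich member known from the hair cuticle, measured 30.1, 26.8 and 27.8 CPM in attached control, 18.9, 16.2 and 16.6 in attached GFI1, 15.0, 14.03 and 13.7 in floating control and 12.6, 16.5 and 13.8 in floating GFI1 libraries. The attached control libraries stood above all others, and the floating groups overlapped each other. S100A3 fell with GFI1 in attached cells (log2 value -0.71 ± 0.088, adjusted p = 1.15e-07) and with suspension in control cells (-0.99 ± 0.092, adjusted p = 3.02e-09), while the GFI1 value in floating cells was 0.0069 ± 0.10, adjusted p = 0.957 and the interaction was 0.72 ± 0.13, adjusted p = 4.81e-04. The fall on suspension of GFI1 cells (-0.27 ± 0.094, adjusted p = 0.0323) rested on overlapping groups and did not pass without attached GFI1 1 (adjusted p = 0.173), floating GFI1 1 (0.156) or floating GFI1 3 (0.0839), nor by DESeq2 (0.0555) or when only the GFI1 libraries were fitted (0.0657). S100A3 fell and S100P rose both with GFI1 in attached cells and with suspension of control cells, comparisons that share the attached control libraries. Their log2 CPM had a Pearson r of -0.946 over the 12 libraries in their 4 groups.

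S100A2, a member of basal epithelial cells that binds p53, had between 34 and 116 counts per library and the largest standard errors of the 9 tested members. It measured 3.10, 3.96 and 3.10 CPM in attached control, 4.51, 3.00 and 4.36 in attached GFI1, 2.43, 2.05 and 2.38 in floating control and 6.23, 6.40 and 4.53 in floating GFI1 libraries. The floating control libraries were lowest, the floating GFI1 libraries highest, and the attached groups overlapped between them. GFI1 raised S100A2 by 2.49-fold in floating cells (log2 value 1.31 ± 0.19, adjusted p = 2.03e-06), beside 0.21 ± 0.19, adjusted p = 0.346 in attached cells, and the interaction was 1.10 ± 0.27, adjusted p = 0.00836. The suspension effects had opposite signs, with -0.57 ± 0.21, adjusted p = 0.0328 in control and 0.54 ± 0.17, adjusted p = 0.0201 in GFI1 cells. Both suspension calls were lost by DESeq2 (adjusted p = 0.0718 and 0.0573). The first was also lost without attached control 2 (0.160) or floating control 1 (0.0519), 2 (0.11) or 3 (0.0597), and the second without attached GFI1 2 (0.141) or floating GFI1 1 (0.0949) or 2 (0.0944).

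S100A13, which takes part in the release of FGF1 from cells, was the tested member with no call in any comparison. It measured 14.9, 12.2 and 12.9 CPM in attached control, 15.9, 10.9 and 13.5 in attached GFI1, 14.9, 16.7 and 16.4 in floating control and 13.8, 15.3 and 16.3 in floating GFI1 libraries, and neighbouring groups in the order of means overlapped. Its largest value was on suspension of control cells (log2 value 0.27 ± 0.11, adjusted p = 0.0635), and it passed there under upper quartile scaling (adjusted p = 0.0447), with library size only (0.0441), with at least 10 counts in every library (0.0495), when only the control libraries were fitted (0.0142), and without attached control 1, attached GFI1 1 or 2, or floating GFI1 2 or 3 (0.0319 to 0.04996). On suspension of GFI1 cells it passed without attached GFI1 1 (0.0394). In GENCODE v44 its exons share 24.2% of their bases with a long non-coding RNA on the same strand and 10.6% with S100A1 on the other strand, so its counts are uncertain. The exons of S100A6 share 3.8% with a non-coding RNA on the other strand, and those of the other 7 tested members share none with another gene.

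S100A14 had between 0 and 5 counts in each library, with 0 in 2 of the 12, and was left out of the tests. Its highest level was 0.287 CPM, and no difference was detectable at this depth. Of the 11 S100 genes outside the 10 members, 3 were tested (S100A1, S100A5 and S100A9), and the other 8 had at most 3 counts in any library. S100A5, whose gene lies between S100A6 and S100A4, measured 0.834, 1.36 and 0.861 CPM in attached control and 2.08, 1.94 and 2.25 in attached GFI1 libraries, and rose with GFI1 in attached cells (log2 value 1.02 ± 0.27, adjusted p = 0.00165). It had between 14 and 49 counts per library. In floating cells its groups overlapped (0.42 ± 0.24, adjusted p = 0.137). On suspension it rose in control cells (0.73 ± 0.28, adjusted p = 0.0398), beside 0.13 ± 0.23, adjusted p = 0.728 in GFI1 cells. S100A1, with 15 to 34 counts per library, had no call in any comparison. S100A9, a subunit of the neutrophil protein calprotectin, had 1, 0 and 1 counts in attached control libraries and 11, 10 and 12 in floating control libraries, which is at least 3.76-fold higher when the attached control libraries are set to the floor of 3 counts each. It had 2, 8 and 9 counts in attached GFI1 and 12, 32 and 9 in floating GFI1 libraries. S100A9 was called higher with GFI1 in attached cells (log2 value 2.86 ± 0.96, adjusted p = 0.0120) and on suspension of control cells (3.86 ± 0.85, adjusted p = 6.39e-04). It was also called higher on suspension of GFI1 cells (1.55 ± 0.50, adjusted p = 0.0196), where the groups overlapped. The GFI1 value in floating cells was 0.55 ± 0.46, adjusted p = 0.309. All these values rest on few counts.

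Levels of different members can be set side by side only per length of transcript, and for this the CPM was divided by the deposited gene length in kilobases (RPKM). The summed level of the 10 members was 2193 ± 106 RPKM (SD, n = 3) in attached control, 2099 ± 139.8 in attached GFI1, 2247 ± 45.2 in floating control and 2558 ± 36.3 in floating GFI1 libraries. S100A6 made up 42.1% ± 0.85 (SD) of this sum in attached control and 46.5% ± 0.85 in attached GFI1 libraries. The share of S100A4 was 20.8% ± 0.59 in attached control, 38.4% ± 0.39 in attached GFI1, 25.7% ± 0.22 in floating control and 40.5% ± 2.2 in floating GFI1 libraries. Those of S100A11 were 20.2%, 7.41%, 17.6% and 6.58%, and those of S100A10 were 12.1%, 2.83%, 10.0% and 2.94%. In every GFI1 library the shares of S100A10 and S100A11 were below, and that of S100A4 above, those in every control library. The shares depend on the length used: with exon lengths of GENCODE v44, a choice made after seeing the data, S100A10 held 16.7% and 4.01% in the attached groups, and S100P, with 1280 bases in the deposited table and 471 in v44, held 5.85% in place of 2.42% in floating control libraries.

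**Figure D4:**
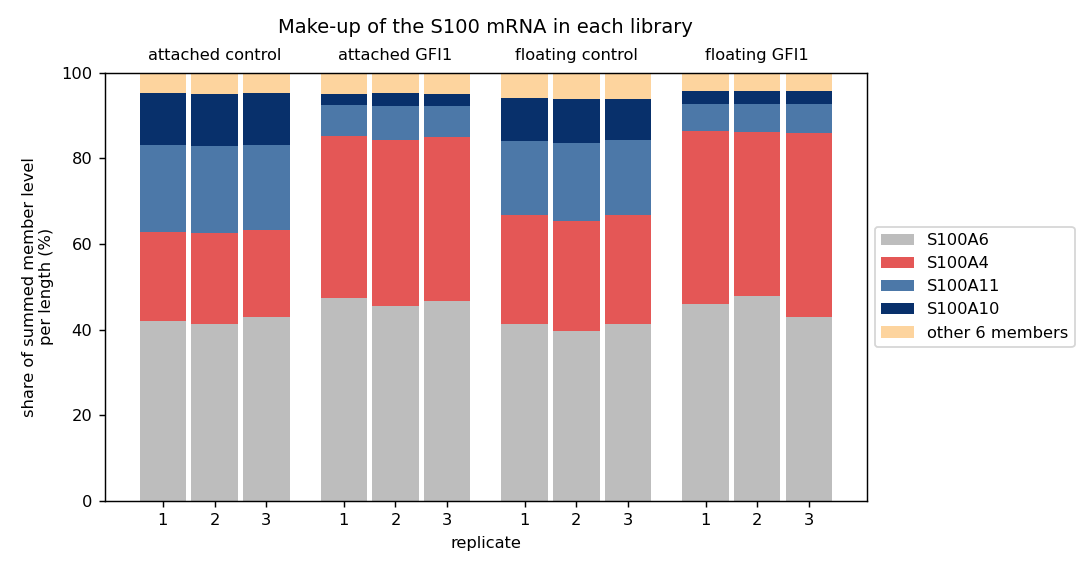
Share of each S100 gene in the summed level per length (RPKM, percent) of the 10 members, as 1 stacked bar per library. The share of S100A4 (red) was 20.8% in attached control and 38.4% in attached GFI1 libraries, and that of S100A10 and S100A11 (blues) was smaller in all 6 GFI1 libraries.

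Of the 10 members, 9 lie on chromosome 1 between positions 151982915 and 153632039 (hg38), an interval of 1649 kb that begins at S100A10 and ends at S100A1. S100A10 and S100A11 are neighbours at one end, with their lowest coordinates 50 kb apart. The run S100A6, S100A5, S100A4, S100A3, S100A2, S100A16, S100A14 (not tested), S100A13 and S100A1 begins 1552 kb from the lowest coordinate of S100A10. As S100A10 is on the minus strand, this coordinate is not its start site. With GFI1 the pair at the first end fell together, and the dense stretch held members that rose, fell or did not pass side by side. S100A4 rose and S100A3, whose gene body overlaps that of S100A4, fell in attached cells, and the 2 share no exon bases in GENCODE v44. Of the 6 other tested genes in the interval, in attached cells TCHH was higher (1.01, adjusted p = 3.65e-05) and FLG lower (-0.71, adjusted p = 0.00944) with GFI1, while FLG-AS1, HRNR and the RNA genes BX470102.1 and BX470102.2 did not pass. In floating cells TCHH (1.41, adjusted p = 3.84e-07) and BX470102.1 (0.99, adjusted p = 0.00775) were higher and HRNR lower (-0.64, adjusted p = 0.0403), and FLG did not pass (adjusted p = 0.134).

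**Figure D5:**
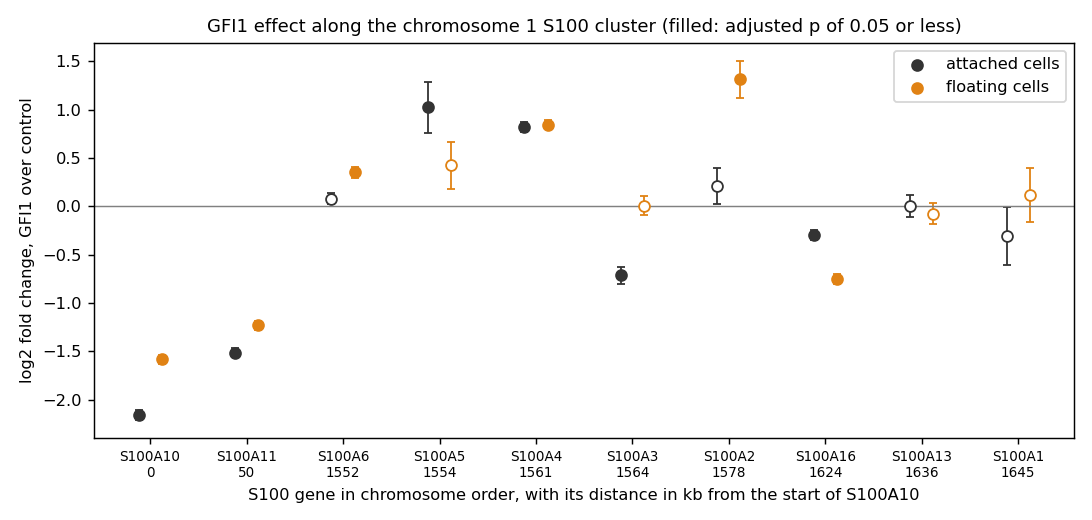
Log2 fold change with GFI1 (bars, SE) of 10 tested S100 genes of chromosome 1 in their order along it (black, attached cells; orange, floating cells; filled, adjusted p of 0.05 or less). The distance in kb runs from the lowest coordinate of S100A10, called its start on the axis, to that of each gene. S100A9, at or under 3 counts in the attached control libraries, is not drawn. S100A10 and S100A11 lie lowest at the left end, and the other genes lie on both sides of 0.

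The mRNAs of proteins that S100 members bind changed in both directions with GFI1, and more of them fell than rose on suspension. Of 15 listed partners 14 were tested, and GFI1 raised 5 and lowered 7 of them in attached cells (35.7% and 50%, against 29.5% and 32.8% of all tested genes), and raised 6 and lowered 7 in floating cells (42.9% and 50%, against 29.3% and 31.1%). On suspension 1 rose and 10 fell in control cells (7.14% and 71.4%, against 19.6% and 20.5% of all tested genes), and 1 rose and 9 fell in GFI1 cells (7.14% and 64.3%, against 15.0% and 16.3%). Their median log2 fold change on suspension was -0.26 in control and -0.24 in GFI1 cells, beside 0.011 and 0.0017 over all tested genes. AGER was the partner that rose in both. The partner list was also chosen with earlier results of these data known, and the background holds genes of every abundance. The gap between the shares was not tested, so the partner shares are a description only. In the interaction 3 partners were higher (21.4%, against 4.76%) and 1, ANXA2, was lower (7.14%, against 6.01%), with the lowest adjusted p among the higher ones for EZR (0.50 ± 0.061, adjusted p = 3.02e-06).

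As a comparison within calcium binding, 12 EF-hand genes outside the family were tested. This list too was chosen with earlier results of these data known. Its shares are a description only, and their gap to those of all tested genes was not tested. GFI1 raised 2 and lowered 8 in attached cells (16.7% and 66.7%, against 29.5% and 32.8% of all tested genes), and raised 1 and lowered 7 in floating cells (8.33% and 58.3%, against 29.3% and 31.1%). CHP1, a cofactor of sodium-proton exchangers, fell furthest, from 252 ± 9.68 CPM (SD, n = 3) in attached control to 48.7 ± 2.49 in attached GFI1 libraries (log2 value -2.37 ± 0.047, adjusted p = 2.28e-23), and 4.14-fold when floating (-2.05 ± 0.047, adjusted p = 4.14e-22). EFHD2, an actin-binding member, was higher with GFI1 in both states (0.32 ± 0.039, adjusted p = 1.14e-07 and 0.72 ± 0.041, adjusted p = 4.65e-14). On suspension 1 rose and 6 fell in control cells (8.33% and 50%, against 19.6% and 20.5%), and 1 rose and 4 fell in GFI1 cells (8.33% and 33.3%, against 15.0% and 16.3%). CIB1, which binds the cytoplasmic tail of a platelet integrin, was the one that rose in both (0.36 ± 0.079, adjusted p = 5.23e-04 and 0.53 ± 0.079, adjusted p = 9.55e-06), and EFHD2 was lower in both (-0.76 ± 0.041, adjusted p = 1.39e-13 and -0.35 ± 0.039, adjusted p = 1.01e-07). In the interaction 3 were higher (25%, against 4.76%), among them EFHD2 (0.40 ± 0.056, adjusted p = 1.80e-05), and 0 were lower (against 6.01%).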

How the data were processed

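The 12 libraries were grouped by the sample labels. Per the file headers, the deposited values are raw read counts per gene, which the authors made by aligning poly-A RNA-Seq reads to the human genome. The submitters' processing notes name Bowtie2, HTSeq and hg38, whereas the methods of the study name Hisat2 and featureCounts, and this was not resolved. The strand setting and annotation release were not given in the sources used here. The tools were R 4.3.3 and edgeR 4.0.16. The filterByExpr function asked for at least 10 counts in a library and 15 in total, libraries were scaled by TMM, and counts were fitted as 4 group means in 1 quasi-likelihood model, with 5 two-sided contrasts adjusted by Benjamini-Hochberg over 17829 genes. The biological coefficient of variation was 4.86%. The log2 CPM values, used for the correlations and the range of group means, had a prior count of 2. The log2 fold changes came from the fitted model without that setting. At the low end, 3 counts or fewer were taken as the floor, for counting error only. The code was tested on simulated data. The tested members were the 9 that passed the filter. The members and gene lists were chosen with earlier results of these data known.

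All 10 members are named, with the tested gene of lowest adjusted p per direction in each other list, and the 3 genes most like S100A10. The listed annexins and the other tested S100 genes are named as well. Alternatives were DESeq2 1.42.0, other scalings, other filters, only the groups compared, a replicate block, leaving out each library, and a 2-fold limit on the calls. Start regions came from RefSeq (GRCh38.p14), matched by symbol for 10 of 10 members, and exon overlaps from GENCODE v44. No amino acid sequences were used here.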

Additional observations from a re-analysis of the deposited data

Results flagged for a closer look

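For 7 of the 9 tested members the GFI1 effect differed between floating and attached cells by edgeR's quasi-likelihood test of the interaction. They are given here for a closer look. Of the tested members 55.6% had a higher value in floating cells (against 4.76% of all tested genes) and 22.2% a lower one (against 6.01%). The members were chosen with earlier results of these data known, so these shares are a description only. GFI1 mRNA was itself higher in floating than in attached GFI1 cells. The difference, floating minus attached on the log2 scale, was 1.10 for S100A2, 0.72 for S100A3, 0.27 for S100A6, 0.58 for S100A10, 0.28 for S100A11, -0.45 for S100A16 and -1.13 for S100P. For S100P the 2 floating groups overlapped and the attached groups did not, for S100A2 and S100A6 the attached groups overlapped and the floating groups did not, and for S100A3 the floating groups overlapped and the attached groups did not. The S100A6 call was lost on leaving out any 1 of 8 of the 12 libraries, with an adjusted p of up to 0.0753. The S100A10, S100A11 and S100A16 groups were apart in both states.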

How the results depend on the processing

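Of 351 comparisons of a member's log2 value under another setting with its main value, 330 kept their direction and side of the threshold, and of 540 with 1 library left out 498 did. The counts of called members are apart from these. Asking for a fold of at least 2 as well left 3 members with GFI1 in attached cells and 3 in floating cells. It left 1 on suspension of control cells, 0 on suspension of GFI1 cells and 2 in the interaction. Of all tested genes it left 18.2%, 17.3%, 5.10%, 2.80% and 1.35%, in the same order. With a replicate block the 5 counts stayed at 6, 6, 7, 7 and 7, and no member call changed. No shared deviation was seen between same-numbered libraries, with correlations from -0.031 to 0.031. These correlations cannot show whether such libraries were prepared together, and the labels do not say. With library size only, the median of all genes rose to 0.14 in both GFI1 comparisons and the share of calls that were higher was 61.5% against 47.4% in attached cells, and 61.4% against 48.5% in floating cells. The fall of S100A16 with GFI1 in attached cells was then -0.15 (adjusted p = 0.00759). Values with no call changed sign in some settings. S100P with GFI1 in floating cells was 0.034, and S100A13 0.052, with library size only. S100A6 on suspension of control cells was 0.0058 with library size only and 0.0052 with upper quartile scaling. S100A3 with GFI1 in floating cells was -0.00030 by DESeq2, and S100A13 in attached cells was -0.014 with no low-count filter. With 1 library left out, the range was -0.13 to 0.14 for S100A13 with GFI1 in attached cells, -0.10 to 0.099 for S100A3 with GFI1 in floating cells, -0.060 to 0.017 for S100A6 on suspension of control cells, and, in the interaction, -0.020 to 0.074 for S100A4 and -0.21 to 0.055 for S100A13. The cause was not tested. The 0 to 5 counts of S100A14 set the limit of depth.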
